A study of Danio rerio with 32 samples.

Results

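The oldest cultures of a series on adult zebrafish muscle cells are described here: 4 arrays of day 14 against 5 arrays of day 10, chosen by the day and batch in their titles, out of 32 arrays in all. In that series mononuclear cells were isolated from dorsal muscle pooled from 15 to 20 adult fish, expanded, per the labels, in growth medium with fetal serum and fibroblast growth factor, and then held in a differentiation medium with little horse serum. RNA from 6 days of culture, the first being day 0 and the last day 14, was measured on Affymetrix Zebrafish Genome Arrays, where each probe set reports the level of a transcript. Day 14 was represented by replicates A and B of array batch 1 and A and B of batch 2, and day 10 by A and B of batch 1 and A, B and C of batch 2. The labels give the same media for both days and both batches, although the methods also describe another growth medium. The study states that the cells for its arrays came from the α-actin–RFP line, in which a red fluorescent protein is driven by a muscle actin promoter, and its methods also name the wild-type AB strain, while the labels give no genotype. A control probe set for the red fluorescent protein DsRed had signals of 13279 and 7796 at day 14 of batch 1, against 10222 and 12524 at day 10, but at most 175 on all 5 arrays of batch 2, so that the fish line of batch 2 is not settled here. The quality grade in the labels is poor for day 14 B of batch 1 and day 14 A of batch 2, and good for the other 7 arrays. The study describes its replicates as biological duplicates, but no source says whether every array had separately prepared cells. The p-values therefore set each change only against the spread among these samples, and that spread may be technical.

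In culture, muscle progenitors leave the cell cycle when serum is withdrawn, switch on the transcription factor myogenin, fuse into multinucleate myotubes and build sarcomeres, the repeating units of actin, myosin and troponin that contract. A preparation of mononuclear cells from whole muscle also carries resident macrophages and other leukocytes, fibroblasts, skin cells and vessel cells. Late cultures are where the survival of each of these populations, and the upkeep of the myotubes, can be followed. In RNA from a mixed culture, fewer cells of a type and less RNA per cell cannot be told apart.

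Of 31 genes of macrophages and other leukocytes, 14 were lower at day 14 without overlap in both batches, against 2.37% of all genes. The median of that list was below 0 on all 4 day 14 arrays. Of 42 sarcomere genes, 29 were lower without overlap in batch 2, against 17.1% of all genes. By the same count 20 were higher in batch 1, against 13.4% of all genes, and most of that shift stood on the array labelled poor. Of 46 genes of mitosis, 32 were lower in batch 1 and 32 were higher in batch 2, against 17.4% and 16.3% of all genes. Signals below are quantile normalized intensities. Log2 changes are day 14 minus day 10, taken after an offset of 32 was added to each signal, so that they understate changes of dim genes, and they are given with the standard error (SE).

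With both batches in 1 limma fit and the batch as a block, no probe set of 15502 had an adjusted p under 0.05 by the Benjamini-Hochberg method, the threshold for a call (0%). Without adjustment, 991 probe sets (6.39%) had a p under 0.05, 383 of them higher and 608 lower at day 14. The smallest adjusted p was 0.123. Taken apart, each batch gave 1 called probe set (0.00645%), and so did the difference of the day 14 change between the batches. A gene was therefore also counted, with no test, when every day 14 array lay above, or every one below, every day 10 array of its own batch. Of 8793 genes, 142 were higher (1.61%) and 208 were lower (2.37%) in this way in both batches. Without the 2 arrays labelled poor these counts were 638 (7.26%) and 578 (6.57%), over fewer arrays.

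The arrays themselves differed more between batches than between days. Day 14 A of batch 1 correlated most closely with day 10 A of its batch (r = 0.968 over log2 signals), and less closely with its day 14 partner (r = 0.883). Likewise, day 14 B of batch 2 correlated at 0.961 with day 10 B of its batch and at 0.929 with its partner. Over the 8793 genes, the log2 changes of the 2 batches correlated at r = -0.02 (a description across genes, which are not independent), and 48.1% of genes had the same sign in both. The GAPDH signal of the 3′ probe set over that of the 5′ one, a measure of RNA integrity, was 1.39 and 1.26 on the day 14 arrays of batch 1, against 1.26 and 1.31 on its day 10 arrays. The same ratio in batch 2 was 4.82 and 3.41 at day 14, against 2.52, 8.73 and 12 at day 10. For the actin control the ratio was far higher in both batches. It was 65.9 and 17.1 at day 14 of batch 1, against 40.8 and 53.8 at day 10. In batch 2 the actin ratio was 49.5 and 19.2 at day 14, against 181, 140 and 68.2 at day 10. Batch 1 was hybridized in 1 run. In batch 2, day 14 A shared a run with day 10 B and C. Among the arrays compared, day 14 B and day 10 A were each alone in their run, which they shared with arrays of other days.

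Day 14 B of batch 1 held transcripts that were low on the other 8 arrays compared. On it 94 genes had a signal of at least 1000, while the other 8 arrays were all at or under 200. That pair of thresholds was set after the data were seen. No gene met that description on any of the other 8 arrays. Some of the 94 were high on arrays of other days, such as syt1a at up to 7930 and col9a2 at up to 2365. The 94 genes included opsins of the retina, pancreatic proteases, apolipoproteins of liver and gut, and a lens crystallin. Below, elsewhere means on the other 8 arrays. The ultraviolet cone opsin opn1sw1 had a signal of 18212 on day 14 B of batch 1 and at most 155 elsewhere. The green cone opsin opn1mw1 had 6238, against at most 99.7 elsewhere. The proteases ela2 and prss1, which the exocrine pancreas secretes, had 13480 and 12196, and at most 156 and 121 elsewhere. Apolipoprotein genes followed, with apoa1a at 11380 and apobb.1 at 4241, where none of the other 8 arrays passed 77.3 and 64. The fin fold gene and2, an actinodin, was at 3641, and the cartilage collagen col2a1a at 5201, while both were under 113 on the other 8 arrays.

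**Figure D1:**
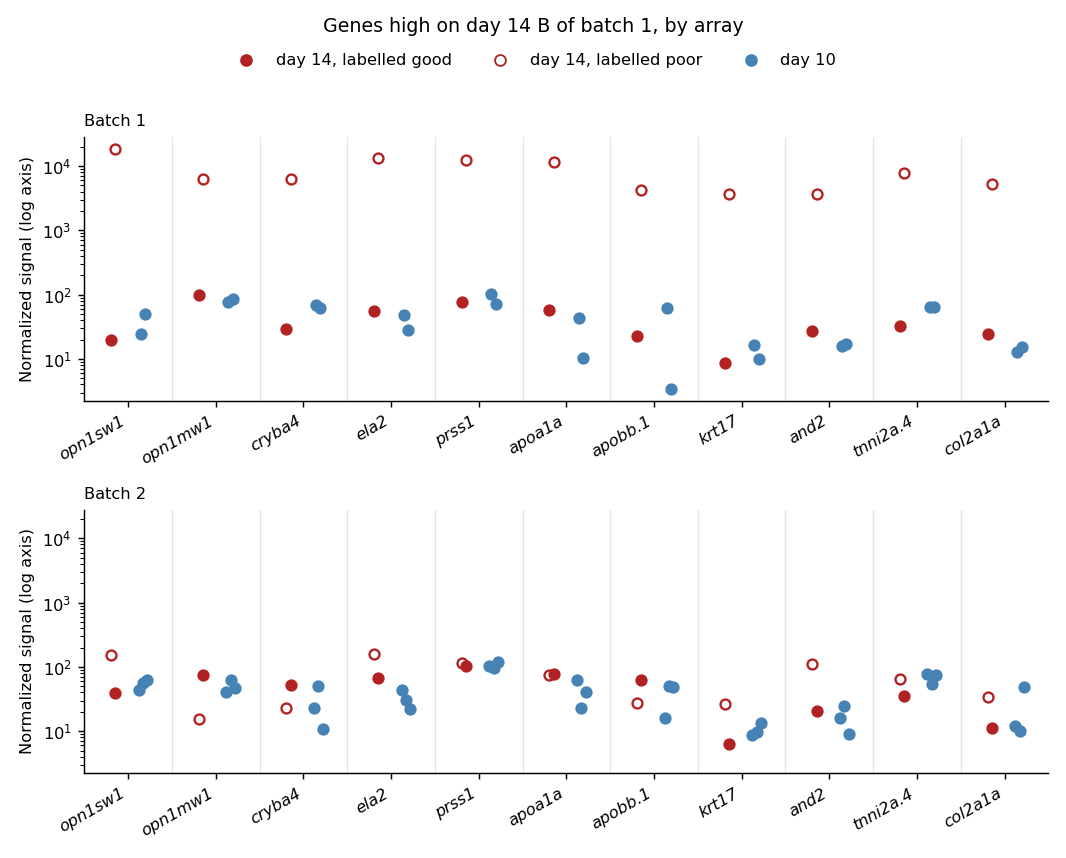
Normalized signal (log axis) of 11 genes on each array, batch 1 above and batch 2 below. Points are single arrays, day 14 in red (open where the label is poor) and day 10 in blue. On day 14 B of batch 1 all 11 genes lie above 3600, and on every other array they lie at or below 156.

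Some genes of fast muscle fibres were also high on that array, and within batch 1 on that array alone. The parvalbumin pvalb2, a calcium buffer of fast fibres, had 31305 on day 14 B and 80.7 on day 14 A of batch 1, against 94.8 and 130 at day 10. The calcium pump atp2a1 had 11727 and 72.5 on the same arrays, and the fast troponin tnni2a.4 had 7865 and 33.0, while both were under 97 on the day 10 arrays of batch 1. At day 10 of batch 2, however, pvalb2 had 1009, 703 and 554, and atp2a1 had 522, 341 and 450. Signals and list medians of batch 1 are therefore given for each array below, since many genes of fast fibres, skin, nerve and cartilage were high on 1 of its 2 day 14 arrays. The methods state that head, tail, fins, skin and organs were removed before muscle was taken. What those transcripts stem from was not tested.

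The labelled cell type was checked against marker genes. Of 12 skeletal muscle markers measured, 8 had a signal over 100 on all 9 arrays. All 6 fibroblast markers, among them the collagen genes col1a1a and col1a2, did so too. The summed signal of the fibroblast markers was 96980 and 83719 at day 14 of batch 1 and 143278 and 135335 at day 14 of batch 2, against 76191 to 129914 on the 5 day 10 arrays. Transcripts of connective tissue cells were thus present beside those of muscle at both days. In batch 2 both day 14 sums lay above the day 10 sums of that batch, which were 112312, 129914 and 113721, whereas in batch 1 the sums overlapped. Bright genes weigh most in such sums. The longer list of 23 fibroblast and connective tissue genes had the opposite order in batch 2, with a median log2 change of -0.52. There 3 of its genes were higher and 10 lower without overlap, against 16.3% and 17.1% of all genes. Of 4 erythrocyte markers none was over 100 on every array, and slc4a1a, the anion exchanger of red cells, had 299 on day 14 B of batch 1 and at most 47.7 elsewhere.

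Of 61 leukocyte and macrophage genes listed, 31 were measured, and 14 of them were lower without overlap in both batches, against 2.37% of all genes, while none was higher. None of the 14 was called with both batches together. The median log2 change of the 31 genes was -1.26 (-1.32 in batch 1 and -0.95 in batch 2), beside -0.01 over all genes. By array the median was -1.01 and -1.27 on day 14 A and B of batch 1, and -0.87 and -0.69 on A and B of batch 2. On the 2 arrays labelled good, day 14 A of batch 1 and day 14 B of batch 2, 18 of 31 genes lay below all day 10 arrays of their batch, against 6.57% of all genes.

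The gene marco encodes a scavenger receptor of macrophages. Its signal was 721 and 600 at day 14 of batch 1, against 9156 and 5708 at day 10. For marco in batch 2 the signals were 81.8 and 48.1 at day 14, against 273, 212 and 259 at day 10. Thus every day 14 array lay below every day 10 array of its batch, from a level that was much higher in batch 1. The fall in batch 1 was called (log2 change -3.40, SE 0.31, adjusted p = 0.0308), the single call of that batch, while over both batches the change was -2.39 (SE 0.36, adjusted p = 0.123). The call was lost without day 14 B (adjusted p = 0.0852), day 10 A (0.112) or day 10 B (0.108) of batch 1, and without day 14 A or B (0.0644 each), day 10 A (0.13) or day 10 B (0.12) of batch 2. It was also lost without both arrays labelled poor (0.102), with an offset of 16 (0.103), with the authors' scaling alone (0.139) and with all 32 arrays in 1 fit (0.879), the change lying between -3.74 and -3.06 throughout.

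L-plastin, encoded by lcp1, bundles actin in blood cells. Its signal was 233 and 478 at day 14 of batch 1, against 2080 and 1566 at day 10, and 47.9 and 92.7 at day 14 of batch 2, against 370, 239 and 678 at day 10. The log2 change was -2.20 (SE 0.32, adjusted p = 0.123). The lysosomal protein gene laptm5 showed the same order, with 355 and 384 at day 14 of batch 1, against 2802 and 2505 at day 10. In batch 2 laptm5 had 139 and 132 at day 14, against 320, 298 and 709 at day 10. The cysteine protease gene ctss2.2, a cathepsin S of antigen presenting cells, had 1403 and 868 at day 14 of batch 1, against 6665 and 5581 at day 10. Its signals in batch 2 were 208 and 292 at day 14, against 682, 447 and 593 at day 10. Granulin a, grna, a secreted growth factor that macrophages make, had 1169 and 799, against 5643 and 5929, in batch 1. Batch 2 had 120 and 225 at day 14, against 465, 358 and 829 at day 10. For the probe set of each of these genes the 2 groups did not overlap in either batch, and the log2 change over both batches lay between -2.20 and -1.70, with adjusted p from 0.123 to 0.225. Another probe set of ctss2.2 was lower in batch 1, with 457 and 437 at day 14, against 2032 and 1452 at day 10, but overlapped in batch 2, with 228 and 129 at day 14, against 237 on day 10 A, 125 on B and a lower value on C, and its change over both batches was -0.57.

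The remaining genes of the 14 gave the same order. CD45, encoded by ptprc, is a phosphatase on the surface of all leukocytes. Its signal was 147 and 56.6 at day 14 of batch 1, against 273 and 392 at day 10, and 28.5 and 75.1 at day 14 of batch 2, against 136, 97.5 and 193 at day 10 (log2 change -1.28, SE 0.29, adjusted p = 0.408). The myeloid transcription factor gene spi1b had 316 and 127 at day 14 of batch 1, against 830 and 1206 at day 10. In batch 2 its groups only just separated, at 78.1 and 84.2 on the day 14 arrays, against 97.0, 111 and 360 at day 10. The others of the 14 were the invariant chain genes cd74a and cd74b, coro1a, the chemokine receptor gene cxcr4b, the signalling genes wasb and lcp2a, and ncf1, a subunit of the phagocyte oxidase, with log2 changes from -1.67 to -1.08.

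Further genes outside that list were lower in both batches. They were named through their values in these data, so that their order was set by the choice. The class II gene mhc2daa, which presents peptides to T cells, had a log2 change of -1.69 (SE 0.21, adjusted p = 0.123). Its signal was 116 and 87.1 at day 14 of batch 1, against 415 and 607 at day 10. The signals of mhc2daa in batch 2 were all dim, at 4.53 and 1.97 on day 14, against 44.7, 65.7 and 80.6 at day 10. Properdin, cfp, which stabilizes the complement convertase, had 833 and 341 at day 14 of batch 1, against 2555 and 1851 at day 10, and 923 and 1058 in batch 2, against 3351, 1996 and 3583 at day 10. The amino acid exchanger gene slc7a7, the membrane protein gene itm2bb, the adaptor gene samsn1a and the phosphatase gene ptpn6, which damps receptor signalling in blood cells, were also lower without overlap in both batches, with log2 changes between -1.49 and -1.32. For samsn1a another, dimmer probe set had the opposite order in batch 2, at 78.8 and 55.1 on day 14, against 5.69, 14.2 and 27.4 at day 10.

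Neutrophil genes overlapped between the days. Lysozyme, lyz, had 104 and 924 at day 14 of batch 1, against 165 and 10902 at day 10, and 655 and 890 in batch 2, against 839, 582 and 6926 at day 10. Single day 10 arrays, B of batch 1 and C of batch 2, carried the high values, and the groups overlapped. The neutrophil peroxidase gene mpx had 315 and 403 at day 14 of batch 2, against 130, 138 and 373 at day 10, which also overlapped. The macrophage receptor gene csf1ra was lower without overlap in batch 1 alone, with 57.4 and 17.1 at day 14, against 336 and 489 at day 10. In batch 2 its signals were at most 80.3 at both days and overlapped.

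**Figure D2:**
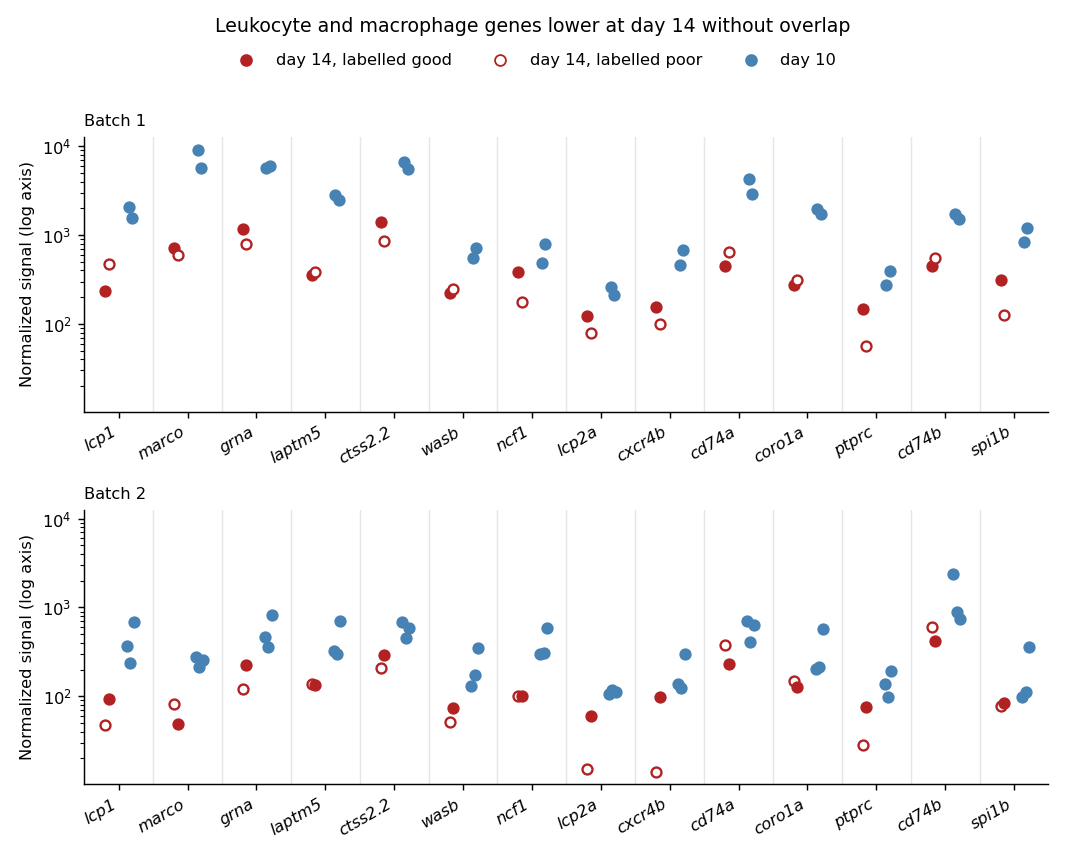
Normalized signal (log axis) of the 14 leukocyte and macrophage genes that did not overlap in either batch, batch 1 above and batch 2 below. Points are single arrays, day 14 in red (open where the label is poor) and day 10 in blue. In each column the red points lie below the blue ones of the same batch, and marco shows the largest gap, with 721 and 600 against 9156 and 5708 in batch 1.

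Set against earlier days, the 2 batches reached day 10 by different courses. In batch 2 the median of the 31 leukocyte genes, as a log2 difference from the mean of day 10, was 1.82 to 2.58 at day 0, 2.15 to 2.50 at day 1, 0.87 to 2.15 at day 4 and -1.25 to 0.49 at day 7, before the -0.87 and -0.69 of day 14. The median of batch 1 was -0.90 and -0.41 at day 0, 0.57 and 1.64 at day 1, 0.02 and 0.16 at day 4, and -0.09 and 0.14 at day 7, and lay at -1.27 and -1.01 at day 14. In batch 1 the signal of marco was between 4779 and 6496 at day 7 and between 5708 and 9156 at day 10, so that from day 7 on the low values stood at day 14 alone. In batch 2 marco was already between 85.3 and 922 at day 7. Day 0 B of batch 1 is labelled poor, and the factor that scaled its signals was far above that of any other array. The day 0 part of the batch 1 course therefore rests on day 0 A. Day 4 B, C and D and day 7 A and B of batch 2 are also labelled poor. These courses were not tested.

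Of 51 inflammation genes measured, 9 were lower without overlap in both batches, against 2.37% of all genes, and none was higher. The median log2 change was -0.34 over both batches, -0.08 in batch 1 and -0.55 in batch 2. By array it was -0.07 and -0.13 on day 14 A and B of batch 1, and -0.76 and -0.65 on A and B of batch 2. Among the 9 were psmb8a, psmb9a and psmb10, the subunits that turn the proteasome into the immunoproteasome. Of these psmb8a had 604 and 391 at day 14 of batch 1, against 820 and 611 at day 10, and 127 and 148 in batch 2, against 694, 445 and 397 at day 10. Its log2 change was -1.13 (SE 0.28, adjusted p = 0.476). The prostaglandin synthase gene ptgs2a had 84.3 and 128, against 136 and 198, in batch 1. In batch 2 ptgs2a had 440 and 772 at day 14, against 1371, 1597 and 1414 at day 10. The NF-κB inhibitor gene nfkbiaa, the interferon response gene irf1b and the NF-κB subunit gene nfkb2 were also among them, besides cfp and ncf1, which stand above. The summed signal of 11 leukocyte markers was 3123 and 4173 on day 14 of batch 1, against 23634 and 29067 at day 10. In batch 2 the sum was 2508 and 2520 on day 14, against 5473, 3187 and 11534 at day 10. The gap of these sums was wider in batch 1, whereas the inflammation median was lower in batch 2, at -0.55 against -0.08. Of the 11 markers 8 were lower without overlap in both batches, against 2.37% of all genes. All 8 are among the 14 leukocyte genes counted above, so that they add no separate result. The part of leukocytes in the inflammation genes was not tested. Complement component c4 did not overlap in batch 2 alone, with 117 and 162 at day 14, against 2049, 2736 and 1484 at day 10 (log2 change -3.60, SE 0.54, adjusted p = 0.0641). In batch 1 its signals overlapped, with 4822 and 2281 at day 14, against 1209 and 4362 at day 10.

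Genes of the sarcomere had medians of opposite sign in the 2 batches, which did not hold for every list of muscle genes. The list of calcium handling and the neuromuscular junction, given below, also had opposite signs, at 0.38 and -1.05. Its 2 day 14 arrays of batch 1 disagreed, however, at -0.14 and 1.04. Lists of muscle membrane proteins, myogenic factors and myoblast fusion had medians between -0.09 and 0.11 in either batch. Both desma and cav3, given below, belong to the membrane list, with medians of -0.07 in batch 1 and 0.11 in batch 2. Of 42 sarcomere and contractile genes measured out of 95 listed, 20 were higher without overlap at day 14 in batch 1, against 13.4% of all genes, and none lower. In batch 2, 29 were lower, against 17.1% of all genes, and 1 was higher. In all 15 genes were higher in batch 1 and lower in batch 2, against 2.93% of all genes. The median log2 change was 1.08 in batch 1 and -1.26 in batch 2. None of the 42 was called in either batch or for the difference between them.

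The value for batch 1 rested largely on day 14 B, the array with opsin and protease transcripts. By array the median was 0.27 on day 14 A and 2.00 on day 14 B of batch 1, and -1.43 on A and -1.19 on B of batch 2. On day 14 A of batch 1 alone, 25 of 42 genes lay above both day 10 arrays, against 33.7% of all genes, and 7 lay below them. On day 14 B of batch 1 alone, 32 lay above, against 30.1% of all genes. In batch 2 the low values stood on both arrays, with 30 of 42 below all day 10 arrays on day 14 A (35.7% of all genes) and 35 of 42 on day 14 B (28.0% of all genes). Within the hybridization run that day 14 A of batch 2 shared with day 10 B and C, the median was -1.35. There the GAPDH 3′ to 5′ ratio was 4.82 at day 14, against 8.73 and 12 at day 10, and its part was not tested. The summed fibroblast markers were higher at day 14 in batch 2, whereas the longer list of connective tissue genes had a median of -0.52 there. Their part was not tested either.

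Skeletal actin, acta1a, had 6111 and 5065 at day 14 of batch 1, against 4241 and 3014 at day 10. Batch 2 had 708 and 948 at day 14, against 4216, 4526 and 6830 at day 10. The day 14 signals of batch 1 lay above day 10 of that batch but within the day 10 range of batch 2. Those of batch 2 lay below every day 10 signal of either batch. The log2 change was 0.63 in batch 1 and -2.58 in batch 2, a difference of 3.22 (SE 0.44, adjusted p = 0.146). Muscle creatine kinase, ckma, which regenerates ATP at the sarcomere, had 4233 and 12754 at day 14 of batch 1, against 2066 and 2900 at day 10. In batch 2 ckma had 502 and 445 at day 14, against 3036, 3583 and 4148 at day 10 (difference of the changes 4.41, SE 0.63, adjusted p = 0.146). For both genes the order held on each day 14 array.

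The myosin light chain gene myl10 had 10187 and 8502 at day 14 of batch 1, against 5982 and 8048 at day 10, and 621 and 578 in batch 2, against 2670, 2693 and 2315 at day 10. The intermediate filament gene desma, desmin, which ties sarcomeres together, overlapped in batch 1, with 4688 and 2968 at day 14, against 2526 and 3209 at day 10. In batch 2 desma had 426 and 551 at day 14, against 2093, 2356 and 4020 at day 10 (log2 change -2.41, SE 0.34, adjusted p = 0.0641). The slow myosin gene myh7 had 5719 and 2550 at day 14 of batch 1, against 4187 and 5660 at day 10. Its batch 2 signals were 1174 and 636 at day 14, against 3726, 6219 and 6521. Thus batch 2 separated the days for every one of these genes, whereas desma and myh7 overlapped in batch 1. The 1 sarcomere gene higher in both batches was the cardiac and slow troponin gene tnnc1a, at no more than 82.3 on any array.

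Myogenin, myog, the factor that commits myoblasts to differentiate, followed the sarcomere genes in batch 2. It had 133 and 196 at day 14 of batch 2, against 554, 709 and 616 at day 10 (log2 change -1.75, SE 0.30, adjusted p = 0.111). In batch 1 it overlapped, with 634 and 324 at day 14, against 426 and 452 at day 10. Inhibitors of the myogenic factors had the opposite order in batch 2. There id1 had 8601 and 6751 at day 14, against 2860, 3179 and 1624 at day 10, and id2a had 3617 and 3852, against 1429, 1336 and 1633. In batch 1 both overlapped. The determination factor gene myf5 was lower without overlap in both batches, with 108 and 58.6 at day 14 of batch 1, against 140 and 113 at day 10. In batch 2 myf5 had 173 and 265 at day 14, against 335, 272 and 394 at day 10 (log2 change over both batches -0.52, SE 0.21, adjusted p = 0.761). Over the 23 myogenic transcription factors measured, the median change was -0.08, with 1 higher and 2 lower in both batches (1.61% and 2.37% of all genes).

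Genes of calcium handling and of the neuromuscular junction had medians of 0.38 in batch 1 and -1.05 in batch 2 over 19 genes. The 2 arrays of batch 1 disagreed, with a median of -0.14 on day 14 A and 1.04 on day 14 B, whereas batch 2 had -0.97 and -0.61. The acetylcholine receptor subunit gene chrna1 had 118 and 119 at day 14 of batch 2, against 347, 275 and 388 at day 10. In batch 1 it had 271 and 267, against 197 and 253. The caveolin of muscle membranes, cav3, had 475 and 483 at day 14 of batch 1, against 371 and 392 at day 10, and 41.4 and 152 in batch 2, against 349, 168 and 168 at day 10.

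**Figure D3:**
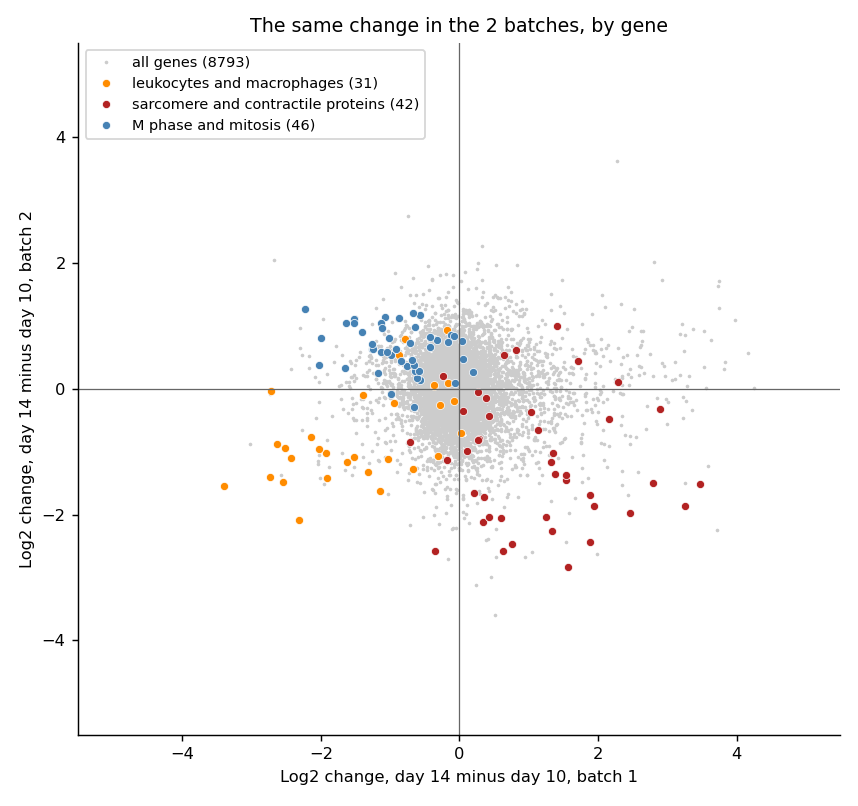
Log2 change of each gene, day 14 minus day 10, in batch 1 (x axis) and batch 2 (y axis), for 8793 genes (grey) and 3 gene lists. Leukocyte and macrophage genes lie mostly to the lower left, sarcomere genes to the lower right and genes of M phase to the upper left, with list medians of -1.32 and -0.95, 1.08 and -1.26, and -0.86 and 0.66 in batch 1 and batch 2.

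Genes of mitosis stood the other way round. Of 46 M phase genes measured out of 64 listed, 32 were lower without overlap at day 14 in batch 1, against 17.4% of all genes, and none was higher. In batch 2, 32 were higher, against 16.3% of all genes, and 1 was lower. In all 22 were lower in batch 1 and higher in batch 2, against 3.82% of all genes. The median log2 change was -0.86 in batch 1 and 0.66 in batch 2. Here the arrays of a batch were close, with medians of -1.04 and -0.68 on day 14 A and B of batch 1, and 0.75 and 0.65 on A and B of batch 2. On the arrays labelled good, 40 of 46 genes lay below both day 10 arrays on day 14 A of batch 1 (29.0% of all genes), and 43 of 46 lay above all day 10 arrays on day 14 B of batch 2 (28.9% of all genes).

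The gene prc1b encodes a protein that bundles microtubules at the midzone of the dividing cell. Its signal was 17 and 59.8 at day 14 of batch 1, against 238 and 332 at day 10. On the batch 2 arrays it was 392 and 467 at day 14, against 177, 156 and 147 at day 10. The difference of the 2 log2 changes was -3.49 (SE 0.45, adjusted p = 0.145). The mitotic kinase gene cdk1 had 105 and 201 at day 14 of batch 1, against 760 and 299 at day 10, and 651 and 767 in batch 2, against 287, 276 and 381 at day 10. Its partner cyclin B, ccnb1, had 144 and 183, against 453 and 341, in batch 1. In batch 2 ccnb1 had 960 and 725 at day 14, against 395, 380 and 385 at day 10. The spindle kinase gene aurka and cdc20, an activator of the anaphase-promoting complex, gave the same order in both batches. The differences of the changes for cdk1, ccnb1, aurka and cdc20 lay between -2.81 and -2.10, with adjusted p from 0.174 to 0.326.

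Genes of S phase had smaller medians. Of 52 measured, 31 were higher without overlap in batch 2 (16.3% of all genes) and none lower, while 15 were lower (17.4% of all genes) and 1 higher in batch 1. Their medians were -0.22 in batch 1 and 0.42 in batch 2. By array they were -0.37 and -0.11 on day 14 A and B of batch 1, where 38 and 21 of the 52 genes lay below both day 10 arrays, beside 29.0% and 46.2% of all genes. The helicase subunit gene mcm5 had 570 and 605 at day 14 of batch 2, against 341, 371 and 437 at day 10. In batch 1 mcm5 overlapped, with 91.0 and 303 at day 14, against 296 and 215 at day 10.

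**Figure D4:**
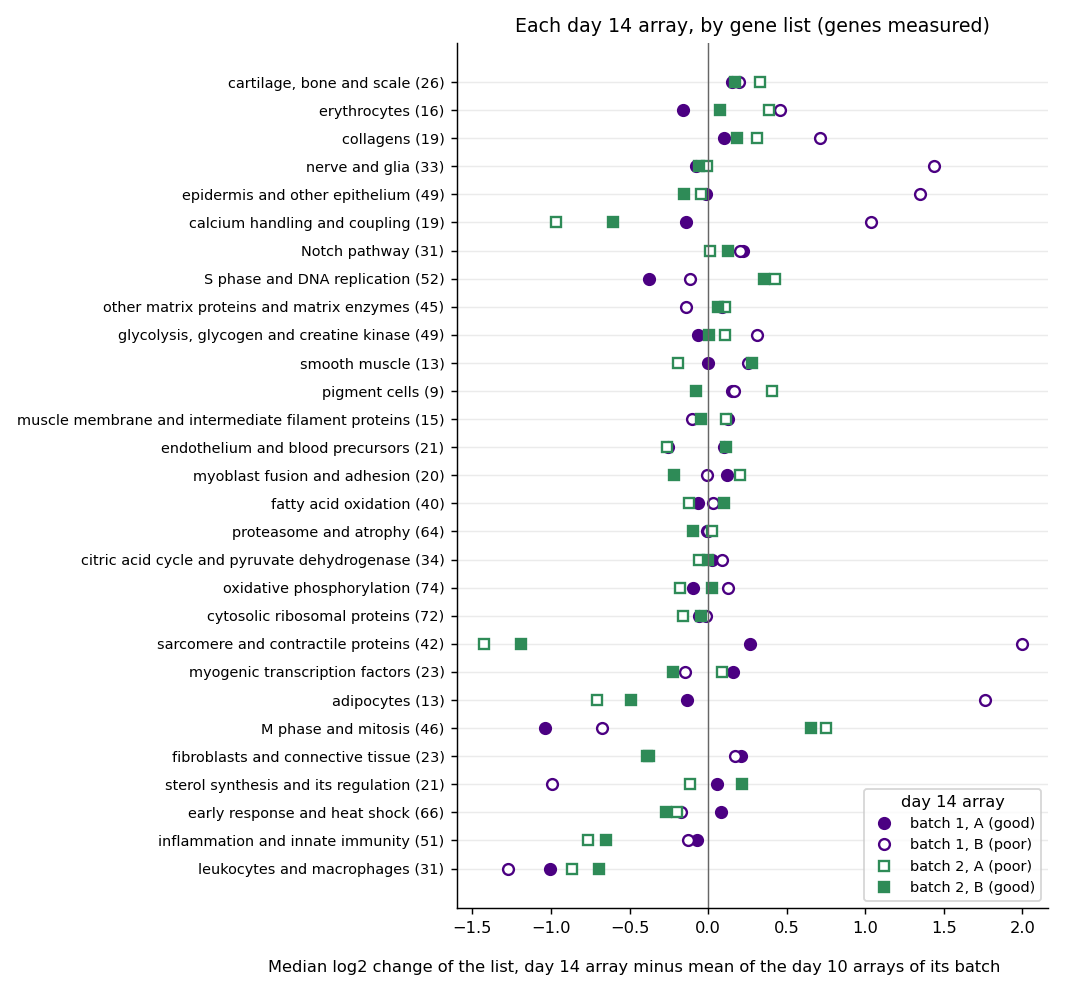
Median log2 change of each gene list on each day 14 array, relative to the mean of the day 10 arrays of its batch, with the number of genes measured in brackets. Filled symbols are arrays labelled good and open ones arrays labelled poor, circles batch 1 and squares batch 2. The 4 symbols lie left of 0 for leukocytes and macrophages, while those of the 2 batches lie on opposite sides for sarcomere (0.27 and 2.00 against -1.43 and -1.19) and M phase genes (-1.04 and -0.68 against 0.75 and 0.65).

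Over the culture as a whole, day 14 of batch 2 lay near its day 7 in these lists. Every day 7 array of batch 2 shared a hybridization run with a day 14 array. Of its day 10 arrays, B and C did so and A did not. The part of the run in this likeness was not tested. The sarcomere median of batch 2, relative to day 10, was -0.75 to -0.58 at day 0, -1.23 to -0.44 at day 1, -1.86 to -1.54 at day 4 and -1.42 to -0.90 at day 7, and -1.43 and -1.19 at day 14, so that day 10 was the high point of that batch. Its M phase median was 0.33 to 1.36 at day 7, and 0.75 and 0.65 at day 14. In batch 1 the sarcomere median was 0.28 and 1.01 at day 7, and its M phase median was 1.42 and 0.89 at day 4, -0.96 and -0.97 at day 7, and -1.04 and -0.68 at day 14. The day 7 and day 14 arrays of batch 1 thus both lay below day 10 for mitosis. Earlier arrays labelled poor are included in these ranges, namely day 4 B, C and D and day 7 A and B of batch 2.

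**Figure D5:**
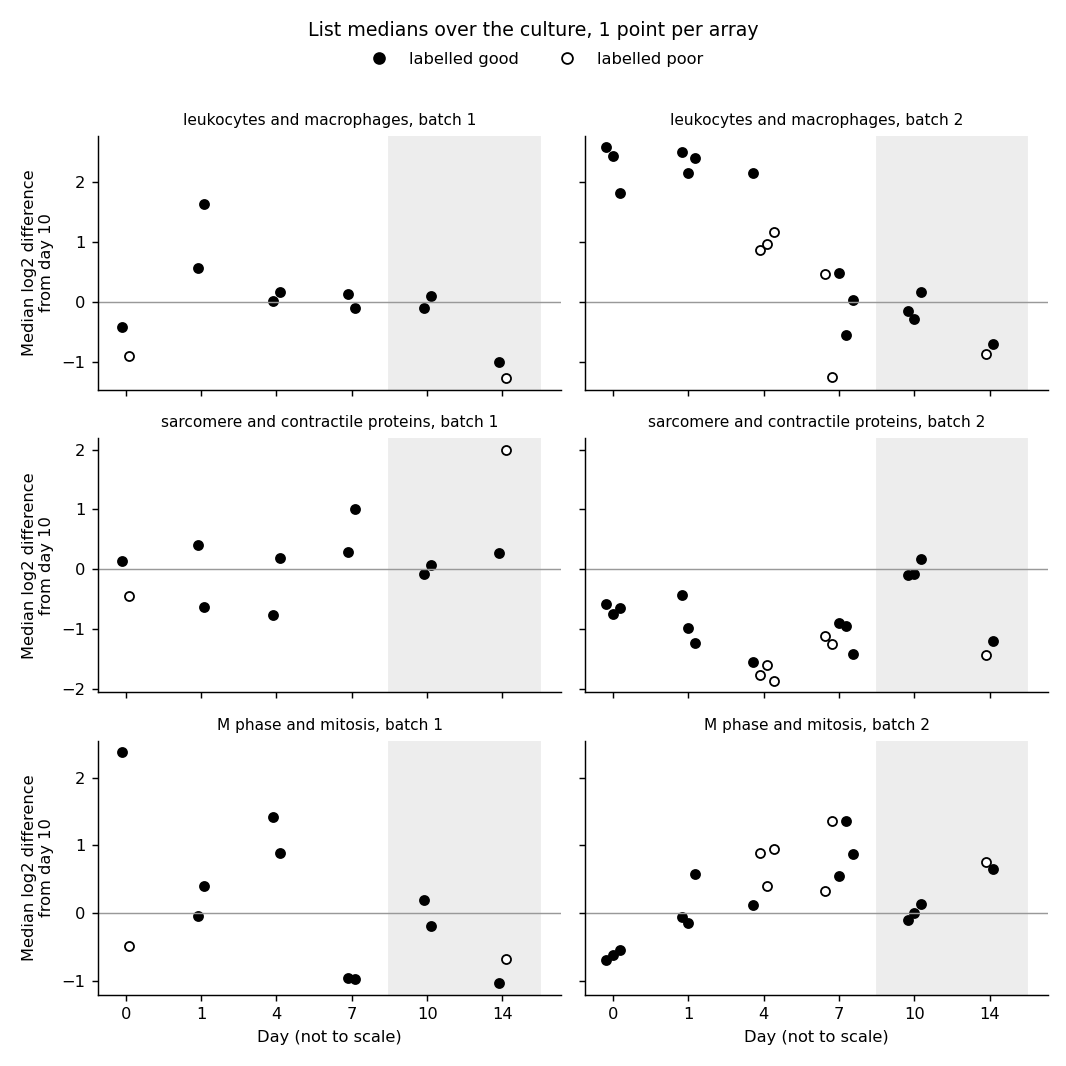
Median log2 difference of 3 gene lists from the mean of day 10 of the same batch, 1 point per array (filled where the label is good, open where it is poor), against the day of culture, with days 10 and 14 shaded. Leukocyte medians lie below 0 on all 4 day 14 arrays, whereas the sarcomere and M phase medians at day 14 lie on opposite sides of 0 in batch 1 and batch 2.

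The batches differed by test in 1 gene, f13a1b, which encodes the A chain of coagulation factor XIII, a crosslinking enzyme that macrophages also make in mammals. Its signal was 143 and 177 at day 14 of batch 1, against 1471 and 959 at day 10. In batch 2 it was 3926 and 3218 at day 14, against 672, 777 and 1117 at day 10. The log2 change in batch 1 minus that in batch 2 was -4.72 (SE 0.44, adjusted p = 0.0348). In batch 2 this gene thus stood opposite to marco and lcp1. Of 2 other probe sets of f13a1b, 1 gave a difference of -5.77 (adjusted p = 0.145) and the other, dimmer one -1.86 (adjusted p = 0.47), with a batch 2 change of 0.41. The call was lost without either day 10 array of batch 1 (adjusted p = 0.149 without A and 0.119 without B), without day 14 A or B of batch 2 (0.349 and 0.0765) and without day 10 A, B or C of batch 2 (0.188, 0.230 and 0.0590). It was also lost without both arrays labelled poor (0.131) and with an offset of 16 (0.0829), while the difference stayed between -5.02 and -4.42.

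The single probe set called in batch 2 has no gene name in the annotation. Its signal was 316 and 422 at day 14 of batch 2, against 3212, 2473 and 2263 at day 10 (log2 change -2.74, SE 0.25, adjusted p = 0.0328). In batch 1 it was 1803 and 2296 at day 14, against 1250 and 1284 at day 10, the opposite order. The call was lost without day 14 A (adjusted p = 0.479) or without day 10 A, B or C of batch 2 (0.194, 0.286 and 0.0565), and without either day 10 array of batch 1 (0.0973 each). It was also lost without both arrays labelled poor (0.130), with an offset of 16 (0.0790) and with all 32 arrays in 1 fit (1.0).

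Some metabolic genes stood opposite in the batches without a call, and 2 of them, chosen by their values, are given here. Of all genes, 3.82% were lower without overlap in batch 1 and higher in batch 2. The enzyme phgdh, which opens serine synthesis, had 2579 and 2195 at day 14 of batch 2, against 608, 727 and 762 at day 10. In batch 1 phgdh had 1152 and 1070, against 1645 and 1324. The cationic amino acid transporter gene slc7a3a had 2160 and 2058 at day 14 of batch 2, against 724, 700 and 761, and 1115 and 833 in batch 1, against 1691 and 1504. Their differences of changes were -2.13 and -2.20, with adjusted p of 0.166 and 0.155. Lists of oxidative phosphorylation (74 genes), the citric acid cycle (34), fatty acid oxidation (40) and ribosomal proteins (72) had medians between -0.07 and 0.00 over both batches.

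Fewer genes were higher than lower at day 14 without overlap in both batches, and none of them was called. The gene sulf2a, whose product trims sulfate from heparan sulfate at the cell surface, had 97.8 and 116 at day 14 of batch 1, against 45.2 and 61.7 at day 10. In batch 2 it had 493 and 454 at day 14, against 145, 140 and 190 at day 10 (log2 change 1.09, SE 0.20, adjusted p = 0.229). The decarboxylase gene ddc, an enzyme of dopamine and serotonin synthesis, had 1832 and 1714 at day 14 of batch 2, against 345, 392 and 572 at day 10. In batch 1 its groups were close, at 629 and 383, against 296 and 367, and another probe set of ddc was at most 64.4 on any array. The small heat shock gene cryaba was at no more than 59.0 on any array.

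Genes of the skeleton were among them. Of 26 cartilage, bone and scale genes, 3 were higher without overlap in both batches (1.61% of all genes) and none lower, with a median of 0.40. These were the homeobox gene dlx5a, the osteoblast factor gene runx2a and bmp2b. Also in that list, spp1 was lower without overlap in batch 1 and higher in batch 2, and sox9b was the reverse. The gene dlx5a had 43.4 and 179 at day 14 of batch 1, against 11.7 and 12.9 at day 10, and 435 and 246 in batch 2, against 131, 110 and 135 at day 10. For runx2a the values of batch 2 were 1733 and 1409 at day 14, against 343, 941 and 1343 at day 10, a gap smaller than the spread of day 10. The groups of bmp2b barely separated in batch 2, at 422 and 441 on day 14, against 379, 371 and 421 at day 10. A few single genes, picked after their values were seen, differed by more in batch 2. Collagen X, col10a1a, had 5161 and 5581 at day 14 of batch 2, against 268, 204 and 1159 at day 10 (log2 change 3.62, SE 1.06, adjusted p = 0.258). In batch 1 it had 89.7 on day 14 A and 1964 on day 14 B, against 95.1 and 50.3 at day 10. The phosphate regulator gene phex had 794 and 793 at day 14 of batch 2, against 136, 108 and 184 at day 10, while its 3 other probe sets gave batch 2 changes of 0.43 to 1.60. In the same list alpl, the phosphatase of mineralizing cells, and the osteoclast protease gene ctsk overlapped in batch 2, with changes of -0.03 and -0.29. The matrix protein gene tgfbi had 10044 and 10443, against 2384, 3086 and 2390. The cartilage collagen gene col2a1a was at most 49.5 on all arrays of batch 2, and the osteoblast factor gene sp7 at most 46.7 on all 9 arrays.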

How the data were processed

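RNA of 9 of 32 Affymetrix Zebrafish Genome Arrays was compared, all columns being matched to a sample by title (0 left over). The deposited values are linear intensities, 1 per probe set, computed by the authors with MAS5, whose version no source used here gives. The mean of each deposited array was 500 after 2% of each tail was trimmed, although the labels give a scaling target of 1500 for batch 2. RMA values, which the methods describe, were not analysed here. Of 15617 probe sets, 115 controls were dropped. Quantiles of every array were set to the mean quantiles of 10 batch 1 arrays, and values were log2(signal + 32). In the annotation of the array 10795 probe sets had 1 symbol (10711 brought up to date by Entrez ID, 84 as annotated), 135 had several and 4572 had none. Each of 8793 genes was represented by its probe set of highest mean log2 signal.

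Two-sided tests were made by lmFit and eBayes of limma 3.58.1 (R 4.3.3) with Benjamini-Hochberg adjustment and a threshold of 0.05, with the batch as block over both batches (6 residual degrees of freedom) or with 4 means of day and batch (5). The number of arrays limits the precision. Fits were checked on simulated data. Gene lists got counts and medians and no test. Members, lists and rules were chosen with earlier results of these data known. By rule, the named genes were 12 in each direction that were called over both batches or, failing that, had the smallest p among those not overlapping in either batch; 6 in each direction of smallest p for the difference between batches; and 4 members of each list of smallest p over both batches, and for muscle lists also by the difference, plus the genes followed by PCR in the study. Others, among them genes of day 14 B of batch 1, lyz, mpx, c4, alpl, ctsk and the M phase examples, were chosen after their values were seen. Alternatives were other offsets, a filter on dim probe sets, the authors' scaling alone, quantiles of the 9 arrays, all 32 arrays, the hybridization run or replicate letter as block, and arrays left out.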

Additional observations from a re-analysis of the deposited data

Results flagged for a closer look

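The change at day 14 differed between the batches for f13a1b by test, the log2 change of batch 1 minus that of batch 2 being -4.72. Lists of sarcomere and M phase genes were among those with medians of opposite sign on every day 14 array of the 2 batches. The difference between the batches was not tested for a list. Sarcomere and contractile proteins had a median log2 change of 1.08 in batch 1 and -1.26 in batch 2. M phase and mitosis had -0.86 in batch 1 and 0.66 in batch 2. All batch 1 arrays shared 1 hybridization run, whereas the batch 2 arrays compared came from 3 runs. Batch 2 had a GAPDH 3′ to 5′ ratio of 4.82 and 3.41 at day 14, against 2.52, 8.73 and 12 at day 10. The part of the runs or of this ratio in these medians was not tested.

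Outside the genes compared, the control probe set for the red fluorescent protein DsRed had a signal of 13279 and 7796 on day 14 A and B of batch 1, against 10222 and 12524 on the day 10 arrays of that batch. In batch 2 it had 175 and 8.73 on day 14 A and B, against 9.52, 4.33 and 30.1 at day 10. The labels give no genotype for either batch.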

How the results depend on the processing

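With both batches together, the count of called probe sets was 0 in all settings but an offset of 16, which gave 2, both lower; with the hybridization run as a block 1095 probe sets had an unadjusted p under 0.05. The 1 call of batch 1 became 0 with an offset of 16, with the authors' scaling alone, without the 2 arrays labelled poor and with all 32 arrays in 1 fit, 13 with an offset of 64, 7 with the filter on dim probe sets and 5 with quantiles of the 9 arrays. The 1 call of batch 2 became 0, 7, 0 and 0 in the first 4 of these, and 32, 33 and 13 in the last 3. The 1 call for the difference became 0 with an offset of 16 and without the poor arrays, 2 with the authors' scaling and 2 with the filter, 4 with an offset of 64 and 3 with quantiles of the 9 arrays. With 1 array left out, the calls ran between 0 and 677 in batch 1 (614 higher and 63 lower without day 14 A of batch 1), between 0 and 613 in batch 2 (301 higher and 312 lower without day 14 B of batch 2) and between 0 and 542 for the difference (502 higher and 40 lower without day 14 A of batch 1); a lone array there is assumed to vary like the other groups. Whether letters pair arrays across days is not settled. Deviations of same-letter arrays correlated at -0.0056 in batch 1 and at -0.020 and 0.0035 in batch 2. With only 2 day 14 arrays in each batch, these values cannot exclude a pairing. The study correlated the time profiles of its replicates A and B. With the letter as a replicate block the calls were 0 over both batches, 0 in batch 1, where marco had an adjusted p of 1, and 14 in batch 2. The causes were not tested.

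Genes higher without overlap in both batches numbered 142, 638 without the poor arrays and 188 to 413 without 1 array; those lower numbered 208, 578 and 248 to 669. Fewer arrays make it easier not to overlap. The count of 14 leukocyte genes was 14 to 17 without 1 array. Their median of -1.26 was -0.95 without the poor arrays and -1.37 to -0.997 without 1 array. The sarcomere median of batch 1, 1.08, was 0.27 without the poor arrays and 0.27 to 2.00 without 1 array, and that of batch 2 -1.43 to -1.15. M phase medians were -1.10 to -0.58 in batch 1 and 0.61 to 0.75 in batch 2. Of 2539 values of 148 named genes, 1 turned its sign, the batch 1 minus batch 2 change of cxcr4a, which was 0.73 and became -0.17 without the poor arrays. The log2 changes of dim genes depend most on the offset, and the number of arrays limits the precision.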

Other observations

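On day 14 B of batch 1, the array with opsin and protease transcripts, further genes were high beside those described above. The gene fabp10a, the fatty acid carrier of fish liver, had a signal of 1952 there and at most 74.0 on the other 8 arrays, and the fibrinogen genes fgb and fgg had 1497 and 1984. Pancreatic amylase, amy2a, had 1612 and carboxypeptidase cpb1 had 2044, where the other arrays did not pass 138 and 113. Of photoreceptors, the cone transducin gene gnat2 had 1210 and the cone phosphodiesterase gene pde6c 2176. The synaptic genes snap25a and syt1a had 1944 and 1384. The embryonic globin genes hbae3 and hbbe2 had 6483 and 2182, and the cartilage collagen genes col9a2 and col9a3 had 1706 and 1547. These genes were picked from the 94 after their values were seen. On arrays of other days syt1a reached 7930 and col9a2 reached 2365, above their values here.

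Some other gene groups had small medians over both batches. The lists of the Notch pathway (31 genes), myoblast fusion (20) and muscle membrane proteins (15) had medians of 0.14, 0.02 and 0.03 over both batches. The 66 early response and heat shock genes had a lower median, -0.25 over both batches, with 27 changes above 0 and 39 below. Without overlap, 10 were higher and 10 lower in batch 1 (13.4% and 17.4% of all genes). In batch 2, 14 were higher and 21 lower (16.3% and 17.1% of all genes). Of the 66 genes, 5 were higher and 1 lower without overlap in both batches, beside 1.61% and 2.37% of all genes. The chaperone gene dnajb1a was the lower one, with 244 and 158 at day 14 of batch 1, against 265 and 335 at day 10, and 214 and 177 in batch 2, against 296, 310 and 340 at day 10. On the 2 day 14 arrays labelled good, 13 of the 66 genes were higher and 3 lower, beside 7.26% and 6.57% of all genes.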
